A study of Mus musculus with 4 samples.

Results

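The genes described here are the cytoplasmic translation initiation factors (symbols starting Eif1 to Eif6) and elongation factors (Eef1 and Eef2) of the mouse, measured in RNA bound to tagged ribosomes of astrocytes from mice fed cuprizone or normal chow. Of 55471 genes in the count tables, 79 had a symbol of this form. The rule left out 4 kinases (Eif2ak symbols), 10 named pseudogenes (-ps) and 4 genes with a mean under 1 CPM (counts scaled to a common library total) over the 4 libraries, so 61 genes remained. The members nearest the minimum were Eef1akmt4 at 1.02 CPM and Eif3j2 at 1.05 CPM. The nearest gene outside was Eef1akmt3 at 0.0459 CPM, and Eif2c5, Eif4e1b and Eif4ebp3 had a count of 0 in every library. The prefixes also take in genes that are not translation factors, among them the methyltransferases Eef1akmt1, Eef1akmt2, Eef1akmt4 and Eef2kmt, the kinase Eef2k, Eef1e1 of the tRNA synthetase complex, the exon junction helicase Eif4a3 and Eif1ad.

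The series holds 2 libraries labelled cuprizone and 2 labelled mock. All the mice were male, 8 to 9 weeks old and of the genotype GFAP-Cre+/- Rpl22HA/wt. The cuprizone group received chow with 0.2% cuprizone by weight, a copper chelator that kills oligodendrocytes and strips myelin, and the mock group received normal chow. The Cre recombinase is driven by the GFAP promoter and adds an HA tag to the ribosomal protein Rpl22 encoded by 1 allele, so an HA pull-down from micro-dissected corpus callosum collects ribosomes from any cell where Cre has acted. The samples are labelled 3 weeks, whereas the series' design text names collection at 5, 5.5 and 7 weeks, and the labels do not say whether 1 library is 1 animal or a pool. The p-values therefore measure only the spread between these libraries, which may be technical.

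Translation starts when eIF2, carrying GTP and the initiator tRNA, joins the small ribosomal subunit together with eIF1, eIF1A, eIF3 and eIF5. The cap-binding complex eIF4F, made of the cap binder eIF4E, the helicase eIF4A and the scaffold eIF4G, brings that assembly to the 5′ end of an mRNA, and eIF5B then joins the large subunit. During elongation eEF1A delivers aminoacyl-tRNA, the eEF1B subunits recharge eEF1A with GTP, eEF2 moves the ribosome along and eIF5A assists peptide bonds that form slowly.

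Library totals ran from 21209517 to 23822620 counts, and 3 counts, taken as the limit that a count of 0 allows, equal 0.126 to 0.141 CPM. Summed astrocyte markers took 0.776% and 0.864% of the counts in cuprizone replicates 1 and 2 against 1.30% and 1.24% in mock replicates 1 and 2, and 13 of the 15 markers had a negative log2 fold (cuprizone over mock), Gfap among them at 373 and 444 CPM against 989 and 891 CPM. Neuron markers took 1.81% and 1.78% against 1.54% and 1.63%, but 6 of 15 had a negative fold, and at an unadjusted p under 0.05 in edgeR 4 were lower and 1 higher. The oligodendrocyte markers took 1.07% and 1.39% against 1.33% and 1.55%. The neuron list took more counts than the astrocyte list in every library. Microglia markers lay at 0.0057% or less, with 1 of 12 at 0 in every library. The tagged gene Rpl22, which checks no label because all the mice carry the allele, stood at 41.0 and 27.0 CPM against 41.7 and 41.1 CPM. Fewer cells of a type and less RNA per cell cannot be told apart in these bulk libraries, and the part of the marker shares in any value given here was not tested.

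The 61 members together took 1.146% and 1.11% of all counts in cuprizone, against 1.14% and 1.07% in mock, so the summed level of the family overlapped between the groups. edgeR's quasi-likelihood test called 0 of the 61 members at an adjusted p of 0.05, and it called 0.0822% of the 15816 genes tested. At an unadjusted p under 0.05 it passed 10 members. Of these, 6 were higher in cuprizone (background 5.73% of all genes) and 4 were lower (background 7.04%), together 16.4% of the members beside 12.8% of all genes. DESeq2 called 1 member, Eif4g1, as higher (1.85% of its genes), limma-voom called 0 (0.297% of genes in either direction) and edgeR with bias-adjusted dispersions 0 (0.36%). In 16 members both cuprizone libraries lay above both mock libraries, and in another 16 both lay below, against 21.9% and 22.5% of all genes. The 32 members with separate groups are 52.5% of the family beside 44.4% of all genes. The share of members higher at an unadjusted p was 9.84%, above its background, and the share lower was 6.56%, just under its own. With 6 and 4 genes, nothing particular to the family is read from these counts. The median log2 fold was -0.04 for the members and 0.00 for all genes, and 44.3% of the members had a positive fold against 50.1% of all genes. No difference described for a single member passed edgeR's correction over all genes.

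**Figure D1:**
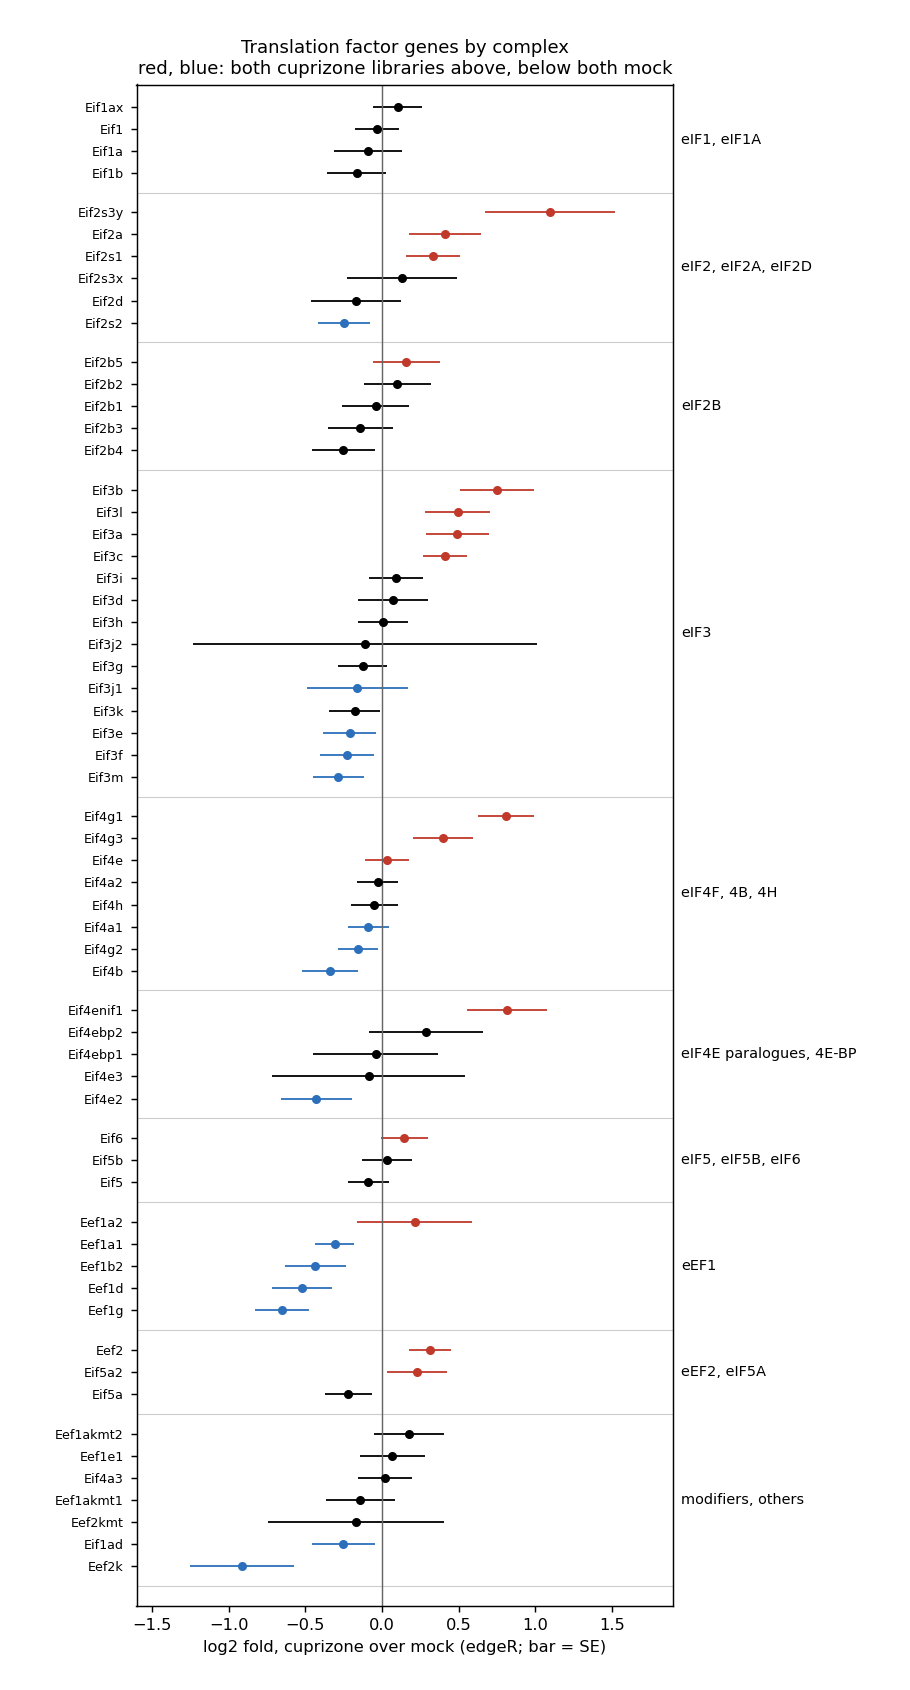
Fitted log2 fold (cuprizone over mock, edgeR) of each member on the horizontal axis, by factor complex, with bars for the standard error; red and blue mark members whose cuprizone libraries both lie above or both below the mock libraries. Eif4g1, Eif4enif1, Eif3b and Eif2s3y lie farthest to the right and Eef2k and Eef1g farthest to the left, and Eef1akmt4, with counts of 1 to 34, is left out.

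The scaffold eIF4G gave the clearest difference among the members. Eif4g1 (ENSMUSG00000045983), the main eIF4G, which bridges the cap-binding protein, the helicase and eIF3, stood at 329 and 310 CPM in cuprizone replicates 1 and 2 and at 158 and 207 CPM in mock replicates 1 and 2. Both cuprizone libraries lay above both mock libraries. The log2 fold was 0.81 (SE 0.18, edgeR adjusted p = 0.192), and it ran from 0.63 to 1.04 over the alternatives, with an adjusted p of 0.00236 in DESeq2 and between 0.00236 and 0.566 over all of them. Its paralogue Eif4g3 stood at 230 and 178 CPM in cuprizone and 142 and 168 CPM in mock, separate groups with a log2 fold of 0.40 (SE 0.19, edgeR adjusted p = 0.471). Eif4g2, a relative that lacks the eIF4E-binding region, stood at 713 and 796 CPM in cuprizone and at 844 and 837 CPM in mock, the opposite order, with a log2 fold of -0.16 (SE 0.13, edgeR adjusted p = 0.710).

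Counted as a share of the 3 eIF4G genes, which needs no scaling between libraries, Eif4g1 made up 25.9% and 24.1% of the counts in cuprizone and 13.8% and 17.1% in mock. Eif4g2 made up 56.0% and 62.0% in cuprizone and 73.8% and 69.1% in mock. Eif4g3 made up 18.1% and 13.9% in cuprizone and 12.4% and 13.9% in mock. Eif4g2 was the largest of the 3 by counts in every library, and by share it was Eif4g1 and Eif4g2 whose groups stood wide apart.

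The start region of Eif4g1 is shown because this gene carries the largest scaffold difference, together with that of Eif3b, the eIF3 subunit with the largest fold. Both run from 70 bases before to 30 bases after the gene's start in RefSeq (GRCm38.p6), 5′ to 3′ on the gene's strand, Eif4g1 at chr16:20672657-20672756 (plus strand) and Eif3b at chr5:140419235-140419334 (plus strand). Capitals mark the E-box CACGTG, a palindrome read the same on both strands and the sequence that Myc and its relatives are known to bind.
Eif4g1: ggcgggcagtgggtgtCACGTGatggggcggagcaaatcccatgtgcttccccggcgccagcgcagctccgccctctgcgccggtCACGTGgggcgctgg
Eif3b: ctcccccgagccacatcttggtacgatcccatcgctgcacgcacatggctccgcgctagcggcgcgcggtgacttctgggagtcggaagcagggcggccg
The Eif4g1 stretch holds the E-box at 2 places and the Eif3b stretch holds none.

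The partners of eIF4G in the cap-binding complex stood closer together. Eif4e, the cap-binding protein, lay at 217 and 212 CPM in cuprizone and 211 and 208 CPM in mock, a log2 fold of 0.03 (SE 0.14). The groups do not overlap, but the gap between them is smaller than the spread within either. The helicase genes Eif4a1 (464 and 482 CPM against 516 and 488 CPM) and Eif4a2 (905 and 938 CPM against 1003 and 874 CPM) had log2 folds of -0.09 and -0.03. Of the helicase cofactors, Eif4b stood at 154 and 121 CPM in cuprizone and 177 and 171 CPM in mock, with a log2 fold of -0.34 (SE 0.18, edgeR adjusted p = 0.515). Eif4h had a log2 fold of -0.05 and overlapping groups. The summed level of the 8 genes was 3630 and 3778 CPM in cuprizone and 3805 and 3606 CPM in mock, so the complex overlapped as a sum while 3 of its genes lay above and 3 below (37.5% each, beside 21.9% and 22.5% of all genes).

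Among the eIF4E paralogues and binding proteins, Eif4enif1, the transporter and repressor that binds eIF4E in the nucleus and in P-bodies, stood at 38.9 and 39.8 CPM in cuprizone and 19.8 and 24.9 CPM in mock. The groups were well separate, and the log2 fold was 0.82 (SE 0.26, edgeR adjusted p = 0.287). Its gene model overlaps Drg1 on the opposite strand, which has a mean of 253 CPM, and the reads of the genes may not have been told apart, since the sources used here do not give the strand setting of the counting. Eif4e2, a cap-binding paralogue linked to repression, stood at 55.5 and 50.9 CPM in cuprizone and 83.1 and 60.1 CPM in mock (log2 fold -0.43, SE 0.23). The binding proteins that hold eIF4E away from eIF4G overlapped between the groups, Eif4ebp1 at 13.9 and 8.63 CPM against 11.5 and 11.6 CPM and Eif4ebp2 at 22.6 and 14.4 CPM against 13.7 and 16.7 CPM. Eif4e3 also overlapped, with a log2 fold of -0.09 (SE 0.63).

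**Figure D2:**
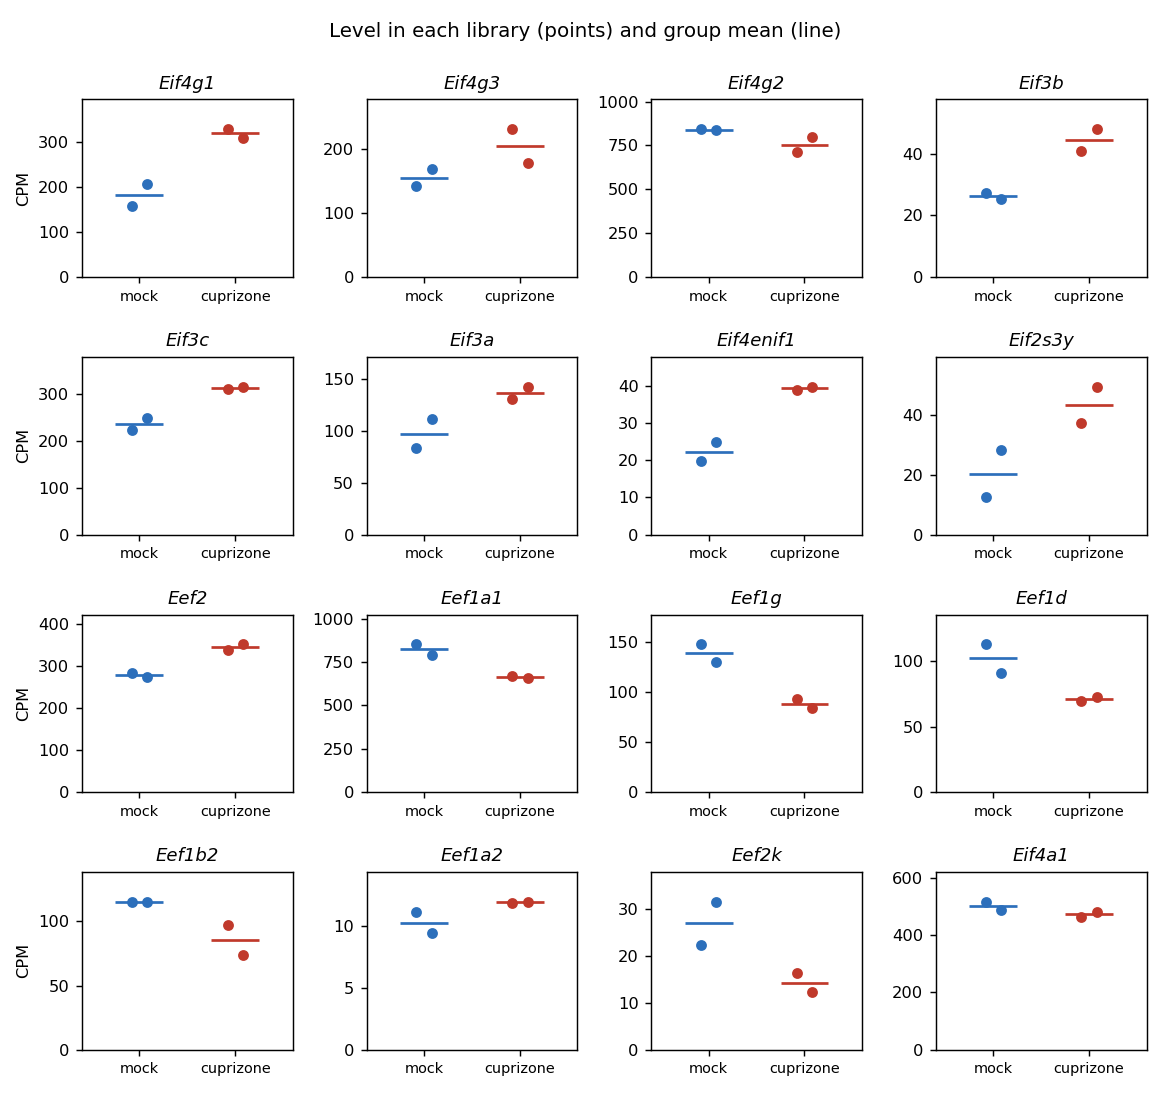
Level in CPM (vertical axis from 0, scaled to each gene) of 16 members, with 1 point per library and a line at each group's mean. The cuprizone points of Eif4g1 (329 and 310 CPM) lie above its mock points (158 and 207 CPM), whereas those of Eef1g (92.8 and 83.8 CPM) lie below (148 and 130 CPM).

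eIF3, the large scaffold on the small subunit, had 14 members with a median log2 fold of -0.05, and 4 lay above and 4 below in both cuprizone libraries (28.6% each, beside 21.9% and 22.5% of all genes). Eif3b, a core subunit that holds the complex together, stood at 40.7 and 48.0 CPM in cuprizone and 27.3 and 25.4 CPM in mock, a log2 fold of 0.75 (SE 0.24, edgeR adjusted p = 0.290). Eif3c, which contacts eIF1 and eIF5, stood at 312 and 316 CPM against 224 and 248 CPM, a log2 fold of 0.41 (SE 0.15, edgeR adjusted p = 0.321). Eif3a, the largest subunit, stood at 131 and 143 CPM against 83.4 and 112 CPM, a log2 fold of 0.49 (SE 0.20, edgeR adjusted p = 0.389). In these 3 core subunits every cuprizone library was above every mock library. The fourth subunit with that order was Eif3l, at 131 and 169 CPM against 118 and 94.3 CPM, with a log2 fold of 0.49 (SE 0.21, edgeR adjusted p = 0.409).

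The other 10 eIF3 subunits had log2 folds between -0.28 (Eif3m) and 0.09 (Eif3i). Eif3m, Eif3f, Eif3e and Eif3j1 lay below in both cuprizone libraries, and Eif3g, the most abundant subunit per length, overlapped at 206 and 217 CPM against 251 and 210 CPM. Eif3j1 and Eif3j2 are close copies whose identity was not computed, and how reads that fit both were counted is not given in the sources used here. Summed over the complex, the level was 1647 and 1765 CPM in cuprizone and 1636 and 1598 CPM in mock. Both cuprizone sums lay above both mock sums, by less than the spread within either group, although single subunits stood apart in both directions. Scaled to library totals, the sums were 1696 and 1795 CPM in cuprizone and 1593 and 1561 CPM in mock.

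eIF2, the factor that carries the initiator tRNA, has an alpha (Eif2s1), a beta (Eif2s2) and a gamma subunit, the last encoded on both sex chromosomes. Eif2s3y, the Y-linked gamma gene, stood at 37.4 and 49.6 CPM in cuprizone and 12.50 and 28.2 CPM in mock. The groups do not overlap, but the mock libraries differ from each other by more than the gap between the groups, and the log2 fold of 1.10 (SE 0.42, edgeR adjusted p = 0.360) was 0.62 without mock replicate 1 and 1.82 with mock replicate 2 left out. The X-linked Eif2s3x stood at 14.1 and 14.7 CPM in cuprizone and 11.2 and 15.01 CPM in mock, with a log2 fold of 0.13 (SE 0.36). The X and Y copies are close paralogues whose identity was not computed. How reads that fit both were counted is not given in the sources used here, so the split of their reads is uncertain.

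Eif2s1 stood at 131 and 140 CPM against 117 and 98.3 CPM (log2 fold 0.33, SE 0.18), and Eif2s2 at 131 and 126 CPM against 164 and 141 CPM (log2 fold -0.25, SE 0.17). The alpha and beta subunits thus lay on opposite sides, each with separate groups and neither past the test. In both genes the mock libraries differed from each other by more than the gap between the groups. Eif2a, a factor for unusual initiation events that is not a subunit of eIF2, stood at 74.3 and 67.5 CPM against 62.1 and 44.7 CPM (log2 fold 0.41, SE 0.23), and its model overlaps that of Serp1 on the opposite strand. Eif2d overlapped between the groups (log2 fold -0.17). The exchange factor eIF2B, the target of the integrated stress response, had log2 folds from -0.25 (Eif2b4) to 0.16 (Eif2b5), and only Eif2b5 had groups that did not overlap. Eif2b4, whose model overlaps that of Snx17 (mean 204 CPM) on the opposite strand, stood at 73.9 and 83.8 CPM against 106 and 82.4 CPM, and Eif2b2 at 93.6 and 84.1 CPM against 95.8 and 69.9 CPM.

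The start codon selection factors showed no separate groups in any of 4 genes. Eif1, which keeps the ribosome scanning until a start codon is paired, stood at 718 and 641 CPM in cuprizone and 740 and 649 CPM in mock, and its paralogue Eif1b at 178 and 139 CPM against 192 and 164 CPM. Eif1ax and Eif1a, the eIF1A genes, had log2 folds of 0.10 and -0.09. Eif5, which triggers GTP hydrolysis on eIF2, stood at 548 and 512 CPM against 546 and 581 CPM, and Eif5b, the subunit-joining GTPase, had a log2 fold of 0.03 (SE 0.16). Eif6, which keeps the large subunit from joining early, was the only 1 of these with separate groups, at 174 and 169 CPM against 154 and 157 CPM and a log2 fold of 0.15 (SE 0.15, edgeR adjusted p = 0.787).

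In the eEF1 complex, which delivers aminoacyl-tRNA, all 5 genes had groups that do not overlap, 4 of them lower and 1 higher in cuprizone, with a median log2 fold of -0.43. Over all genes 44.4% had separate groups, 22.5% lower and 21.9% higher, and 5 genes are too few to read the count as particular to the complex. The sign of each of the 5 folds was kept under all 13 alternatives. Eef1g (ENSMUSG00000071644), the subunit that anchors the exchange complex, stood at 92.8 and 83.8 CPM in cuprizone and 148 and 130 CPM in mock, a log2 fold of -0.65 (SE 0.18, edgeR adjusted p = 0.238, DESeq2 adjusted p = 0.0521). Eef1d, an exchange subunit, stood at 69.9 and 72.4 CPM against 113 and 91.3 CPM, a log2 fold of -0.52 (SE 0.19, edgeR adjusted p = 0.341). Eef1b2, the other exchange subunit, stood at 97.0 and 73.6 CPM against 115 and 115 CPM, a log2 fold of -0.43 (SE 0.20, edgeR adjusted p = 0.443). The 3 exchange subunits were lower in both cuprizone libraries than in either mock library. The models of Eef1b2 and Ndufs1 overlap on opposite strands, as do those of Eef1d and Naprt on 1 strand, so part of those counts is uncertain.

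Eef1a1, the widely expressed eEF1A that carries the tRNA, stood at 672 and 659 CPM in cuprizone and 853 and 792 CPM in mock, a log2 fold of -0.31 (SE 0.13, edgeR adjusted p = 0.391). Eef1a2, the isoform of neurons and muscle, stood at 11.87 and 11.97 CPM against 11.1 and 9.46 CPM, a log2 fold of 0.21 (SE 0.37). The summed neuron markers made up 1.81% and 1.78% of counts in cuprizone and 1.54% and 1.63% in mock, with 9 of 15 folds positive and 6 negative, and their part in this value was not tested. Summed over the complex, eEF1 reached 943 and 900 CPM in cuprizone (mean 922 ± 30.2, SD, n = 2) and 1240 and 1138 CPM in mock (mean 1189 ± 72.5, SD, n = 2). The gap between the sums is larger than the spread within each group, and leaving out 1 library at a time gave a median log2 fold of the 5 genes between -0.50 and -0.29. Summed eEF1B exchange subunits alone gave 260 and 230 CPM against 376 and 336 CPM.

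The start regions of Eef1a1 and Eef1b2 are shown because they stand for the carrier and the exchange factor of eEF1, the complex whose genes lay mostly below, and that of Eef2 because it lay above. Each again runs from 70 bases before to 30 after the RefSeq start (GRCm38.p6), Eef1a1 at chr9:78481695-78481794 (minus strand), Eef1b2 at chr1:63176761-63176860 (plus strand) and Eef2 at chr10:81176561-81176660 (plus strand). Capitals mark the E-box CACGTG, the ETS core, which reads CCGGAAGT, and the TATA box, which reads TATAAA. Both strands were searched, and on the opposite strand the ETS core reads ACTTCCGG, whereas the TATA box there reads TTTATA.
Eef1a1: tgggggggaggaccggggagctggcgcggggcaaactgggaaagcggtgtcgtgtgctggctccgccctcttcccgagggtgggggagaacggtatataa
Eef1b2: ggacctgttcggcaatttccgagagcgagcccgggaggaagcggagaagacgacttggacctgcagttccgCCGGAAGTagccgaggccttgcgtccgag
Eef2: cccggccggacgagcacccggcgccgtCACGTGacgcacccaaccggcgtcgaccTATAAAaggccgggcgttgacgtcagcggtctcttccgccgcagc
Eef1b2 holds the ETS core, Eef2 the E-box and the TATA box, and Eef1a1 none of the 3 as spelled here.

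The translocase lay on the other side from eEF1. Eef2 (ENSMUSG00000034994), which moves the ribosome by 1 codon, stood at 339 and 352 CPM in cuprizone and 283 and 275 CPM in mock, with separate groups and a log2 fold of 0.31 (SE 0.14, edgeR adjusted p = 0.422). Its inhibitory kinase Eef2k stood at 16.4 and 12.3 CPM in cuprizone and 22.3 and 31.6 CPM in mock, also separate, with a log2 fold of -0.91 (SE 0.34, edgeR adjusted p = 0.347). Over all the alternatives the fold of Eef2k stayed between -1.14 and -0.61. Eif5a, the member with the highest level per length, stood at 1064 and 936 CPM against 1278 and 1051 CPM, and the groups overlap (log2 fold -0.22, SE 0.15). Its paralogue Eif5a2 stood at 60.1 and 63.3 CPM against 52.9 and 52.3 CPM, separate groups with a log2 fold of 0.23 (SE 0.19, edgeR adjusted p = 0.713).

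The modifiers and other genes under these prefixes numbered 8 with Eef2k, and 3 of them lay below in both cuprizone libraries (37.5%, beside 22.5% of all genes). Eef1akmt4 is thinly covered, with 1 and 23 counts in cuprizone and 32 and 34 in mock, and its fitted fold rests on cuprizone replicate 1. Eif1ad lay below with a log2 fold of -0.25 (SE 0.21), and its model overlaps that of Banf1. Eef1akmt1 stood at 85.8 and 60.7 CPM against 80.9 and 80.6 CPM, and Eif4a3 at 99.3 and 106 CPM against 107 and 95.4 CPM, both with overlapping groups. The folds of Eef1e1, Eef1akmt2 and Eef2kmt lay between -0.17 and 0.18, also overlapping.

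Levels were compared between genes per length, as CPM per kilobase of the exons of each gene in GENCODE M21. Eif5a stood highest with a mean of 455 over the 4 libraries, followed by Eif1 at 327, Eef1a1 at 298, Eif4a2 at 174 and Eif1b at 150 CPM per kilobase. The lowest library of Eif5a (394) was above the highest of Eif1 (353). The ranges of Eif1 and Eef1a1 overlapped over the libraries, and in mock replicate 2 Eef1a1 (318) was above Eif1 (310), so their order is not beyond the spread. Those of Eif4a2 and Eif1b also overlapped, although Eif4a2 was the higher within each library. The lowest members were Eef1akmt4 at 0.639 and Eif3j2 at 0.441 CPM per kilobase. Subunits of 1 complex were not level with each other. Within eIF3 the means ran from 111 CPM per kilobase for Eif3g to 0.441 for Eif3j2, and within eEF1 from 298 for Eef1a1 to 5.33 for Eef1a2.

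**Figure D3:**
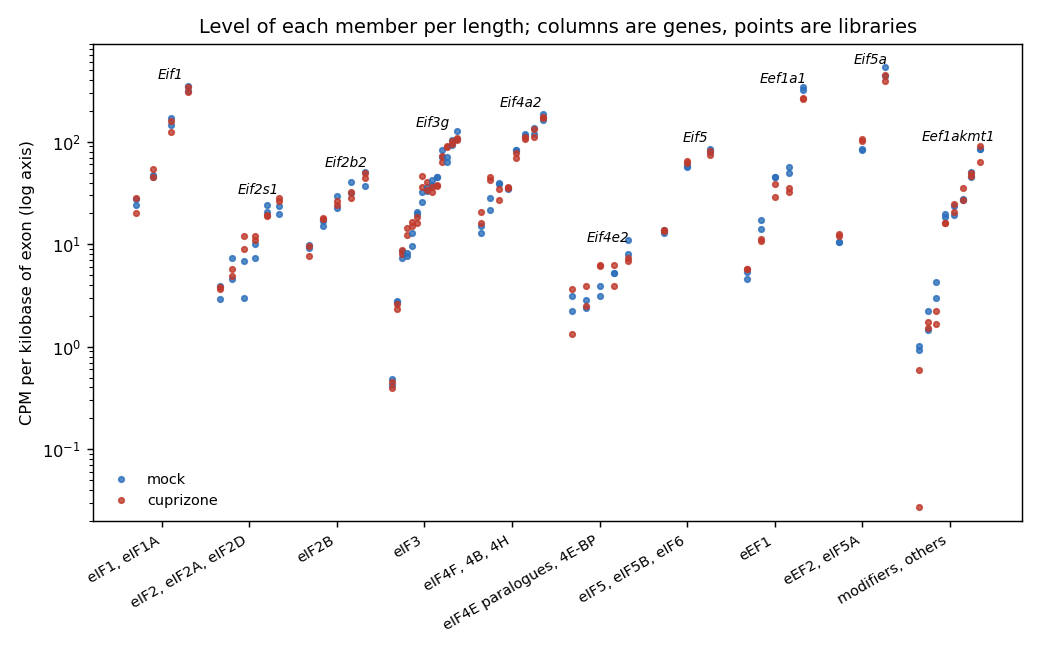
Level of each member in CPM per kilobase of exon on a log axis, with 1 point per library and each column of points a gene, from low to high within its complex. Eif5a, Eif1 and Eef1a1 stand at the top with means of 455, 327 and 298 CPM per kilobase, and the groups lie close together beside the distance between members.

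Paralogues were also compared within each library as a ratio of counts, which no scaling can alter. The ratio of Eif4g1 to Eif4g2 was 0.462 and 0.389 in cuprizone and 0.188 and 0.247 in mock, a difference of 0.98 in mean log2 ratio. Eef1a1 exceeded Eef1a2 by 56.6 and 55.0 times in cuprizone and 76.8 and 83.7 times in mock, a difference of -0.52. Eif5a exceeded Eif5a2 by 17.7 and 14.8 times in cuprizone and 24.2 and 20.1 times in mock, a difference of -0.445. In these 3 pairs the paralogue with fewer counts took a larger share in both cuprizone libraries, and in the other 6 pairs it took a smaller one. Per kilobase the less abundant of the Eif4ebp pair is instead Eif4ebp2. Eif4ebp1 exceeded it there by 1.62 and 1.58 times in cuprizone and 2.22 and 1.84 times in mock. The ratio of Eif2s3x to Eif2s3y was 0.376 and 0.296 against 0.900 and 0.532, a difference of -1.05, with the uncertainty over shared reads given above.

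The other 5 pairs differed by 0.43 (Eif4g1 to Eif4g3), 0.44 (Eif4e to Eif4e2), 0.14 (Eif1 to Eif1b), -0.06 (Eif4a1 to Eif4a2) and -0.34 (Eif4ebp1 to Eif4ebp2) in mean log2 ratio. The groups did not overlap in any of the 9 pairs. Those of Eif4a1 to Eif4a2 nearly met, at ratios of 0.512 and 0.514 in cuprizone against 0.515 and 0.559 in mock. Among single genes 44.4% had separate groups, and the share over gene ratios in general was not taken. Nothing particular to these pairs is read from the count. The exact 2-sided permutation test gave p = 0.333 for each, also after Benjamini-Hochberg adjustment over the 9, and this is the smallest value that 2 libraries against 2 allow. Several pairs share a gene and are not independent.

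**Figure D4:**
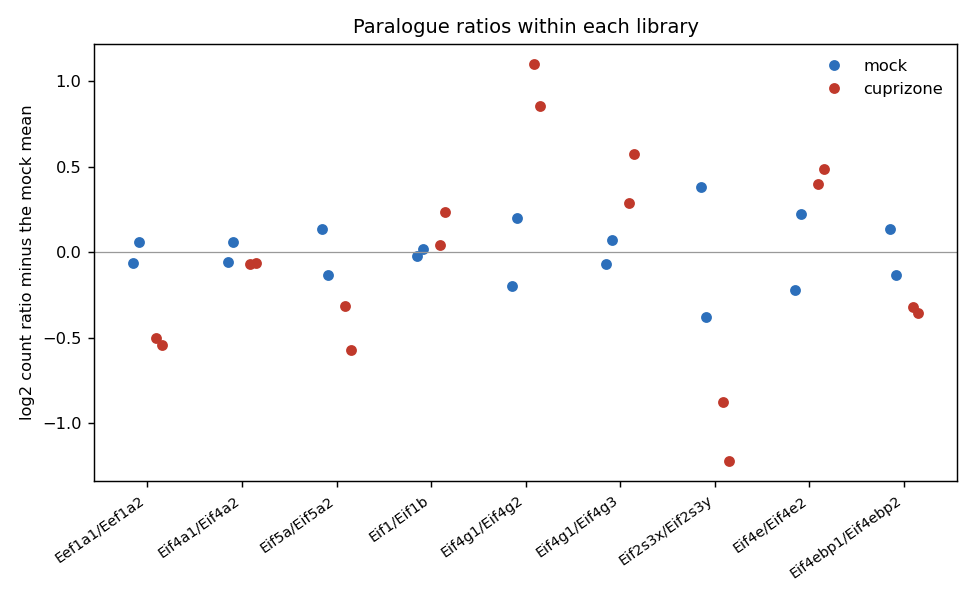
Log2 ratio of counts within each library, minus the mean of the mock libraries, for 9 pairs of paralogues, with 1 point per library. The groups do not overlap in any pair, though those of Eif4a1 to Eif4a2 nearly meet. The distance is widest for Eif2s3x to Eif2s3y (-1.05) and Eif4g1 to Eif4g2 (0.98).

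Members with long coding sequences tended to have positive folds and those with short ones negative folds, and the same held for all genes. All 4 members of 3000 coding bases or more had a positive fold, with a median of 0.45, beside 66.6% of 1950 protein-coding genes of that length with a median of 0.28. Of 7 members of at least 2000 and under 3000 bases, 5 had a positive fold (median 0.31, against 59.8% and 0.15 over all genes of that length). Of at least 1000 and under 2000 bases 9 of 23 members did (median -0.09, against 52.3% and 0.03). Below 1000 bases it was 9 of 27 (median -0.09, against 36.3% and -0.13). Across genes, which are not independent replicates, Spearman's rho of fold with coding length was 0.24 over the 61 members and 0.21 over 13708 protein-coding genes.

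The relation with length differed from library to library. For the members rho was 0.16 and -0.02 for cuprizone replicate 1 over mock replicates 1 and 2, and 0.46 and 0.33 for cuprizone replicate 2 over the same. Between libraries of 1 group it was -0.39 for cuprizone replicate 1 over replicate 2 and -0.30 for mock replicate 1 over replicate 2. A difference between replicates of 1 group thus followed coding length as much as the difference between groups did. Eif4g1 (4800 coding bases), Eif3a (4032), Eif4enif1 (2949), Eif3c (2733), Eef2 (2574) and Eif3b (2409) are among the longer members. Of the lower eEF1 genes, only Eef1b2 (675) is under 1000 bases. Eef1g (1311), Eef1a1 (1386) and Eef1d (1980) lie between 1000 and 2000 bases. Eef2k (2172) is a longer member with a negative fold. The part of length in the folds was not tested.

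**Figure D5:**
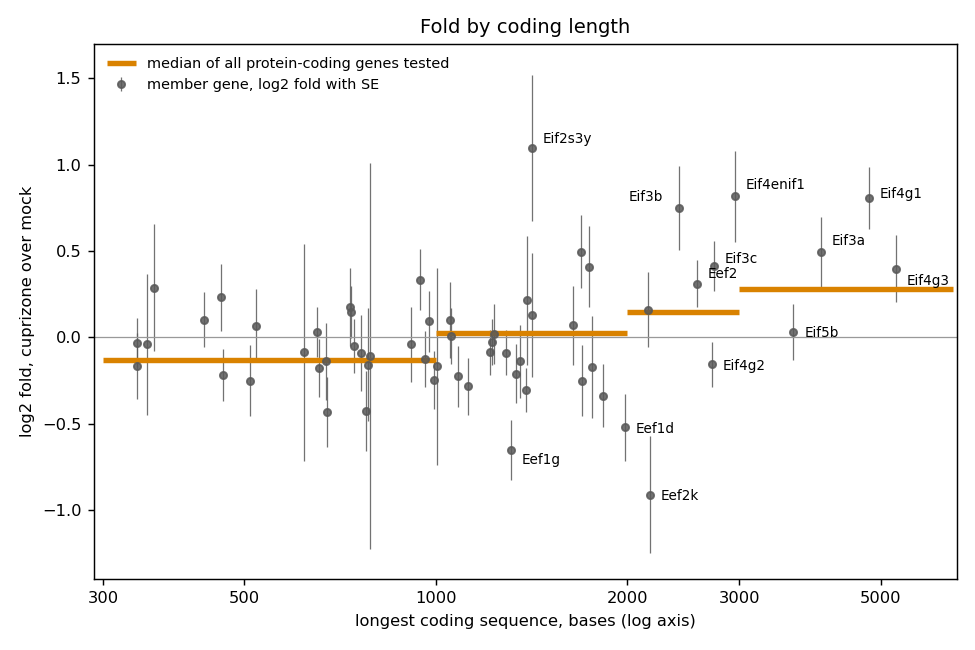
Fitted log2 fold (cuprizone over mock) of the members against coding length in bases on a log axis, with bars for the standard error and orange lines at the median of all protein-coding genes tested in 4 ranges of length. All 4 members of 3000 bases or more lie above 0, and Eef2k lies lowest among those of 2000 bases or more. Eef1akmt4 is left out.

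RefSeq start windows, 250 bases before to 50 after the start, were matched to 48 of the 61 members. The E-box CACGTG was present in 13 of them (27.1%), against 11.5% of 10749 protein-coding genes tested and 8.09% of all 27025 genes with a window. These 13 were Eif4g1, Eif4a1, Eif4e, Eif4h, Eif3a, Eif3f, Eif3k, Eif1b, Eif5a, Eif5a2, Eef2, Eef2k and Eef1akmt4, which spread over 5 of the groups described, and 5 of them had a positive fold. The ETS core CCGGAAGT was present in 8 members (16.7%, against 8.51% and 4.31%), and the TATA box in 5 (10.4%, against 8.78% and 15.7%). A start with C and 4 or more further pyrimidines at the RefSeq start, the mark of mRNAs with a 5′ terminal oligopyrimidine tract, was found in 2 members, Eif3f and Eif2s3x (4.17%, against 3.00% and 3.01%). The RefSeq start need not be the start used in these cells, so the count says only what lies at the annotated base.

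E-boxes of 4 further members, all in cap-binding, eIF3 or eEF2 control, are shown, 1 per member. The 30-base stretches, with the E-box in capitals, come from RefSeq (GRCm38.p6), 5′ to 3′ on the gene's strand. They lie at chr11:69672595-69672624 (minus strand, 189 bases before the start) for Eif4a1, chr3:138527192-138527221 (plus strand, 64 bases before) for Eif4e, chr19:60790654-60790683 (minus strand, 22 bases after) for Eif3a and chr7:120842788-120842817 (plus strand, 31 bases before) for Eef2k.
Eif4a1: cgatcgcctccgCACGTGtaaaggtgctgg
Eif4e: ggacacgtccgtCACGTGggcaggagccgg
Eif3a: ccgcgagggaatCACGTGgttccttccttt
Eef2k: cccggggacggcCACGTGagcccgggcgtg
Eif4e has more than 1 RefSeq start window, and its distance is taken from the start of window 2. That window holds another E-box, 228 bases before the same start, which is not shown. The members that hold the motif include Eif4g1 and Eif3a, with log2 folds of 0.81 and 0.49, and Eef2k, with -0.91.

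Genes of the pathway that are not members gave a second view, with 61 listed genes tested, by coincidence as many as the members. They include the Eif2ak kinases, which carry the prefix but were left out by the rule. edgeR called 0 of them, and DESeq2 called 3, all higher in cuprizone (background 1.85%). At an unadjusted p of 0.05 in edgeR 7 passed, all higher. They are 11.5% of the listed genes, beside 5.73% of all genes higher and 12.8% in either direction. Both cuprizone libraries lay above both mock libraries in 17 genes and below in 10 (background 21.9% and 22.5%), together 44.3% beside 44.4% of all genes. Nothing particular to the pathway is read from these counts. The median log2 fold was 0.16 against 0.00 over all genes. Helicases and initiation regulators had the highest median, 0.34 over 13 genes, 11 of them positive, beside 50.1% of all genes. Stress kinases and phosphatase subunits acting on eIF2 had 0.30 over 9, mTOR complex 1 and its kinases 0.26 over 14, poly(A)-binding proteins and partners 0.17 over 6, termination and recycling 0.04 over 11, and the hypusine and diphthamide enzymes, which modify eIF5A and eEF2, -0.17 over 8. The helicase list holds long genes, among them Dhx29 (4095 coding bases) and Gigyf2 (3873), beside shorter ones down to Ncbp2 (495). All protein-coding genes of 3000 bases or more had a median of 0.28, with 66.6% positive. The part of length in the list medians was not tested.

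Cyfip2, which like Cyfip1 belongs to the family that binds eIF4E and the fragile X protein, stood at 618 and 600 CPM in cuprizone and 337 and 351 CPM in mock, a log2 fold of 0.82 (SE 0.13, edgeR adjusted p = 0.123, DESeq2 adjusted p = 3.88e-05). Nemf, which marks stalled chains on the large subunit, stood at 128 and 140 CPM against 70.8 and 75.3 CPM, a log2 fold of 0.88 (SE 0.17, edgeR adjusted p = 0.157). Paip1, which links the poly(A)-binding protein to eIF4A, stood at 141 and 171 CPM against 58.7 and 98.3 CPM, a log2 fold of 0.99 (SE 0.28, edgeR adjusted p = 0.247). In each of these 3 every cuprizone library was above every mock library, and DESeq2 called all 3. The helicases Dhx36 and Ddx3x had log2 folds of 0.67 and 0.46, Cyfip1 0.79, and the S6 kinase Rps6kb2 1.05 (SE 0.43), at 10.4 and 16.9 CPM against 6.32 and 6.85 CPM. Cyfip1 and Cyfip2 (3759 coding bases each), Nemf (3192) and Dhx36 (3003) are long genes. Ddx3x (1986), Rps6kb2 (1455) and Paip1 (1452) are shorter. The part of length in these folds was not tested.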

How the data were processed

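Ribosome-bound RNA was measured in 4 samples (2 cuprizone, 2 mock). Per the labels' protocols, only RNA with an integrity number over 8 went into the low-input, poly(A) libraries. The authors deposited 1 table of raw counts per Ensembl gene for each library. The submitters' processing notes list the build GRCm38 (mm10), featureCounts 1.6.0, STAR 2.5.4b and FastQC 0.11.9. Not given in the sources used here are the strand setting, the handling of multi-mapping reads and the annotation release. Symbols were matched for 55144 of 55471 genes.

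The test on counts was edgeR's robust quasi-likelihood fit (version 4.0.16, under R 4.3.3; TMM scaling, genes kept by filterByExpr on the groups, 2-sided, Benjamini-Hochberg adjustment over the 15816 genes tested, threshold 0.05), with no covariate. All 61 members passed the filter. CPM values other than those of the selection rule are on TMM-scaled library sizes, and standard errors of log2 folds were taken from the F statistic, as the absolute fold over its square root. The test was checked on simulated counts with changes larger than the fold of any member. That check does not show how often changes of the size seen in the members would be called. DESeq2 1.42.0, limma-voom (limma 3.58.1), bias-adjusted dispersions, other scalings and filters, a replicate block and leaving out each library were the 13 alternatives. Where a library was left out, the lone sample of its group was assumed to vary like the others. Paralogue ratios were compared with exact permutation tests in SciPy 1.17.1. Gene models and coding lengths (the longest coding sequence, without the stop codon) come from GENCODE M21 on GRCm38, and start windows from RefSeq on GRCm38.p6. The E-box, ETS core and TATA box were chosen as motifs after the values were known. At library totals of 21209517 to 23822620 counts, limits from 3 counts cover counting error only.

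Members were named with values where they passed an unadjusted p of 0.05 with separate groups, were the most abundant of their complex or had its largest fold, or belonged to a paralogue pair. Eef1b2, Eif4b, Eif3l, Eif2a, Eif5b, Eif4h and Eif1ax were added after their values were seen, as were members named in a range. Pathway genes were named past an unadjusted p of 0.05 with separate groups and a mean of at least 5 CPM, at most 4 per list. The members and lists were chosen with earlier results of these data known.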

Additional observations from a re-analysis of the deposited data

How the results depend on the processing

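edgeR called 0 members under every alternative that used it, as did limma-voom, and DESeq2 called 1 (Eif4g1, higher). Over all genes the calls higher and lower in cuprizone, 5 and 8 in the test as described, became 45 and 146 with no filter on low counts, 14 and 54 among genes of mean CPM 1 or more, 11 and 46 with bias-adjusted dispersions, 299 and 462 with DESeq2 and 9 and 38 with limma-voom. Leaving out 1 library gave 2 (without mock replicate 1) to 52 (without cuprizone replicate 1) higher and 3 to 71 lower, with the same libraries left out. The members past an unadjusted p, 6 higher and 4 lower in the test as described, numbered 8 higher and 2 lower with library totals, and 7 higher and 3 or 4 lower with either other filter, bias-adjusted dispersions, DESeq2 or limma-voom. Leaving out 1 library gave 2 (without mock replicate 1; 3 without cuprizone replicate 2) to 6 higher and 1 (without cuprizone replicate 2 or mock replicate 1; 2 without mock replicate 2) to 4 lower. The causes were not tested.

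Deviations of same-numbered libraries from their group means correlated at -0.01 over 15816 genes, so no pairing by replicate number was seen in this measure. Replicate 1 over replicate 2 followed coding length in the same direction in both groups. Over all protein-coding genes tested, Spearman's rho was -0.14 in cuprizone and -0.18 in mock. Whether the numbers mark libraries handled together was not tested further. The fit with the replicate block called 5 genes higher and 5 lower, 0 of them members, with 2 members past an unadjusted p lower in cuprizone.

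All 61 members kept the sign of their fold under RLE and upper-quartile scaling, both filters, bias-adjusted dispersions, DESeq2, limma-voom and the block, and 38 kept it under all 13 alternatives. Scaling to library totals moved the median of all genes to 0.07. It gave log2 folds of 0.0198 for Eif4h, 0.0302 for Eif4ebp1, 0.0384 for Eif1, 0.0441 for Eif4a2 and 0.029 for Eif2b1, the 5 members whose sign turned from negative. It also gave median log2 folds of 0.0188 for eIF3, 0.0319 for the cap-binding complex, 0.029 for eIF2B, 0.0092 for eIF1 and eIF1A and 0.0302 for the eIF4E paralogues and binding proteins, all negative with TMM, and 0.10 for eIF5, eIF5B and eIF6, 0.30 for eEF2 and eIF5A and -0.0845 for the modifiers. The log2 ratios of summed CPM were then 0.21 for eIF2, 0.15 for eIF3, 0.0691 for the cap-binding complex and 0.0458 for eIF5, eIF5B and eIF6.

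Leaving out 1 library at a time gave median log2 folds from -0.0811 to -0.0014 for eIF3, -0.0992 to 0.0488 for the cap-binding complex, -0.43 to 0.47 for the eIF4E paralogues and binding proteins, 0.0073 to 0.0823 for eIF5, eIF5B and eIF6, -0.50 to -0.29 for eEF1, 0.19 to 0.27 for eEF2 and eIF5A and -0.176 to -0.0832 for the modifiers. Among the members outside those 38, the sign of the log2 fold turned in, among others, Eif2s3x (-0.064 to 0.38), Eif1ax (-0.0396 to 0.23), Eif4h (-0.19 to 0.0734), Eif4ebp2 (-0.0756 to 0.57), Eif4ebp1 (-0.43 to 0.26), Eef1akmt1 (-0.41 to 0.086), Eif3g (-0.22 to 0.0062), Eif1b (-0.36 to 0.0023), Eif1 (-0.12 to 0.0638), Eif4a3 (-0.0335 to 0.10), Eif2b2 (-0.0839 to 0.34) and Eif4a2 (-0.0967 to 0.0756). No direction of these members is given as settled.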
